A study of Sus scrofa with 12 samples.

Results

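The genes described are the protein-coding members of the 4 HOX clusters of the pig, taken from the RefSeq gene table of Sscrofa11.1 as every symbol made of HOXA, HOXB, HOXC or HOXD and a number. This gave 36 of 19550 protein-coding genes on the assembled chromosomes: 11 in HOXA, 8 in HOXB, 9 in HOXC and 8 in HOXD. HOXB4, HOXB9 and HOXD4 were not analysed here. The data are C/EBP-β chromatin immunoprecipitation libraries of whole endometrial tissue from pregnant pigs, 3 from day 12 and 3 from day 15 of pregnancy. The genotype and breed of the animals are not given in the labels, and neither is whether the replicates are different animals, so a p-value here covers the spread between libraries, part of which could be technical. The 3 input samples of each day were not analysed here. Each file lists peak summits, the single base at which a called peak is highest, with a score that grows with the evidence for the peak, and it holds no reads. In whole tissue, binding in more cells and stronger binding in each cell cannot be told apart.

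HOX genes encode homeodomain transcription factors that set positional identity along the body axis. They lie side by side in clusters in an order that matches the order in which they are used from head to tail, and genes of the same number in different clusters, called paralogues, descend from one ancestral gene. All genes of a cluster are transcribed in the same direction, from the side of paralogue 13 towards the side of paralogue 1, so the end of a gene facing paralogue 13 is as a rule the end where transcription starts. Posterior genes of the HOXA cluster pattern the Müllerian duct, from which the uterus forms, and HOXA10 and HOXA11 remain active in the adult endometrium, where mouse mutants of either gene fail at implantation. C/EBP-β, a factor of the leucine zipper family, is needed by mouse uterine stroma in order to decidualize.

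The libraries differed in ways that bear on every value here. The lists held 6557, 33294 and 57728 summits on the chromosomes for day 12 replicates 1 to 3, and 70152, 16529 and 11960 for day 15 replicates 1 to 3. Peak names with a directory path set day 12 replicate 1 and day 15 replicates 2 and 3 (set A) apart from the others (set B). Within 5 kb of an end of a protein-coding gene lay 42.6%, 52.9% and 56.1% of the summits of set A, and 26.4%, 25.9% and 28.8% of those of set B, in the order of the labels. One sample code stands in the peak names of both day 15 replicates 2 and 3, and the sample part of the names does not give the protein for day 12 replicate 1 and day 15 replicate 3. The input was not analysed and no sequence was available for a motif search, so a summit is the position of a called peak and no more.

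The HOXA, HOXB and HOXD clusters were dense with summits in each day 15 library. On day 12 this held for HOXA in each library and for HOXB in 2 of 3, and the HOXC cluster was almost empty on both days. The HOXA cluster (chromosome 18, 45373340 to 45480306, 107 kb) held 3, 6 and 22 summits in day 12 replicates 1 to 3 and 45, 17 and 15 in day 15 replicates 1 to 3. The density of summits in it was 4.10 to 28.5 times that of all chromosomes in the same library. The HOXB cluster (chromosome 12, 24784953 to 24950661, 166 kb) held 0, 7 and 22 summits on day 12 and 39, 21 and 7 on day 15, at 0, 3.09 and 5.59 times the density of the chromosomes and 8.16, 18.6 and 8.59 times. The HOXD cluster (chromosome 15, 81893997 to 81990026, 96.0 kb) held 0, 1 and 2 on day 12 and 16, 11 and 8 on day 15, at 0, 0.761 and 0.878 times that density and 5.78, 16.9 and 16.9 times. The HOXC cluster (chromosome 5, 19151096 to 19268267, 117 kb) held 0, 0 and 2 on day 12 and 4, 1 and 0 on day 15, between 0 and 1.26 times the density of the chromosomes. HOXA thus had summits in every library, HOXB and HOXD in 5 of 6, and HOXC in 3 of 6.

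**Figure D1:**
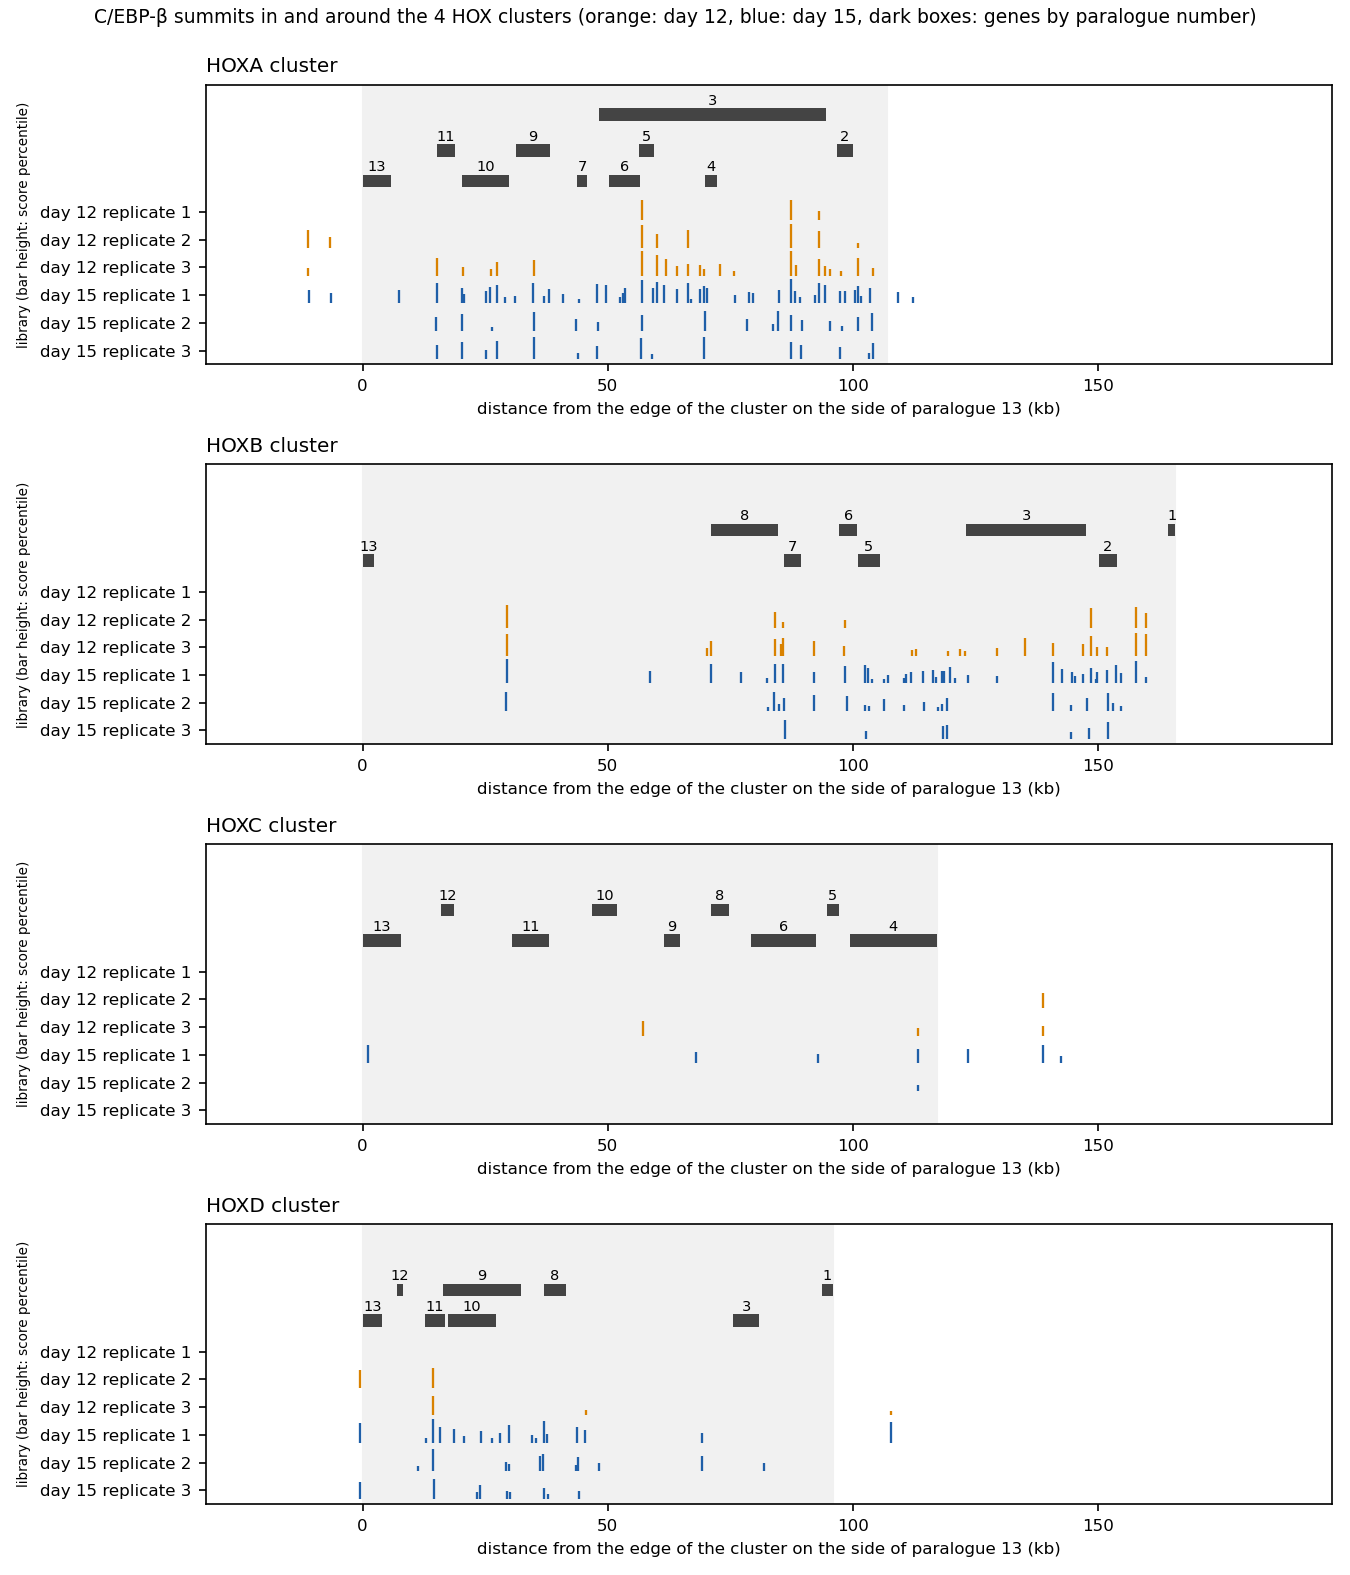
Summits in the 4 clusters (grey) and 30 kb on either side, by library, against the distance from the cluster edge on the side of paralogue 13 in kb. Each coloured bar is 1 summit (orange day 12, blue day 15), its height runs from a short base at score percentile 0 of its library's list to full height at percentile 100, and dark boxes are the genes reported here with their paralogue number. HOXA is filled from HOXA11 onwards in day 12 replicate 3 and the day 15 libraries, whereas in day 12 replicates 1 and 2 its summits begin at HOXA5. The stretch between HOXB13 and HOXB8 is nearly empty, HOXD summits gather from HOXD11 to HOXD8, and HOXC holds 7 summits over all libraries.

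Set against 24336 windows of 100 kb that tile the chromosomes, the HOXA density was reached by few of them in each library. Day 15 replicate 1 had 42.1 summits per 100 kb of HOXA, and 0 windows were as full, the fullest holding 41. In day 15 replicates 2 and 3, with 15.9 and 14.02 summits per 100 kb, 4 and 3 windows were as full or fuller, and in day 12 replicate 3, with 20.6, it was 9 windows. In day 12 replicates 1 and 2, 1.38% and 4.29% of windows reached the HOXA density. The HOXB density was reached by 100%, 7.21% and 0.674% of windows in day 12 replicates 1 to 3, and by 0.0699%, 0.0452% and 0.978% in day 15 replicates 1 to 3. The HOXD density was reached by 100%, 32.4% and 34.9% of windows in day 12 replicates 1 to 3, and by 0.571%, 0.0699% and 0.115% in day 15 replicates 1 to 3. HOXC was an ordinary stretch by this measure, its density being reached by 31.0% to 100% of windows.

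Summits were also counted in the 50 kb on either side of the clusters. For the 4 clusters together, the flanks held 0.25, 2 and 1.75 summits per 100 kb in day 12 replicates 1 to 3, against 0.617, 2.88 and 9.88 inside. In day 15 replicates 1 to 3 they held 3.25, 0.25 and 0.5, against 21.4, 10.3 and 6.17 inside. The gap was thus small in day 12 replicate 2, where the HOXA flanks held 5 summits in 100 kb against 5.61 per 100 kb inside, and for HOXC in day 15 replicate 1 the flanks held more (4 against 3.41). The nearest summit outside HOXB lay 40.3 kb away on the side of HOXB1 and 35.0 kb away on the side of HOXB13. Inside HOXB, 2 stretches of 29.3 kb each without any summit flanked a single site between HOXB8 and HOXB13 (chromosome 12, 24921293 to 24921323), which was present in day 12 replicates 2 and 3 and day 15 replicates 1 and 2. The longest empty stretch of all 4 clusters was 56.2 kb of HOXC, which contains HOXC12, HOXC11 and HOXC10 whole. HOXD had no summit over 21.1 kb between HOXD8 and HOXD3.

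**Figure D2:**
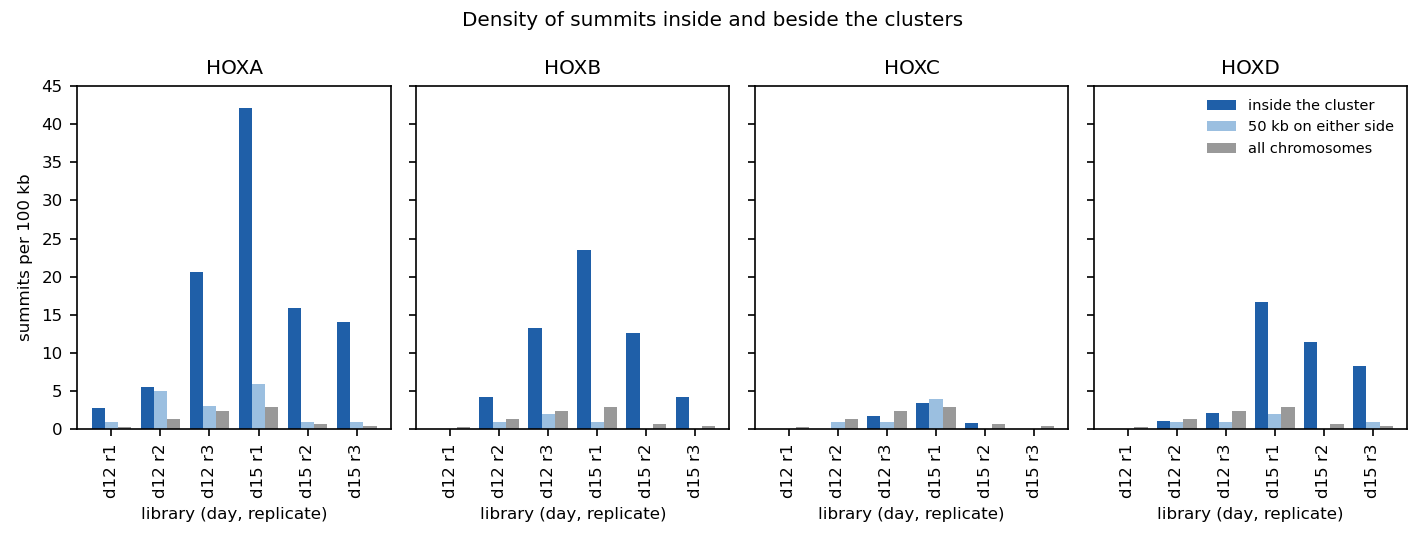
Summits per 100 kb by library (day and replicate on the horizontal axis) inside each cluster, in the 50 kb on either side of it, and over all chromosomes. Inside bars exceed flank bars in every library with a summit in HOXA, HOXB or HOXD, narrowly so for HOXA and HOXD in day 12 replicate 2, and do not stand out in HOXC.

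Between the days, the clusters were compared by the share of each library's list that fell inside them, since the number of summits moves with the length of the list. HOXA held 4.58, 1.80 and 3.81 of every 10000 summits in day 12 replicates 1 to 3 and 6.41, 10.3 and 12.5 in day 15 replicates 1 to 3. Every day 15 library was above every day 12 library. The means were 3.40 ± 1.43 for day 12 and 9.75 ± 3.10 for day 15 (SD, n = 3 each), a difference of 6.35 (two-sided exact permutation p = 0.1, the smallest that 3 against 3 can give, Benjamini-Hochberg adjusted 0.133 over the 4 clusters). The libraries of the 2 days that came closest, day 12 replicate 1 and day 15 replicate 1, had overlapping 95% exact binomial intervals of 0.944 to 13.4 and 4.68 to 8.58. These intervals cover counting error only. Day 15 replicates 2 and 3 share a sample code, so the n of 3 for day 15 may overstate the number of independent samples in each cluster comparison.

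For HOXB the shares were 0, 2.1 and 3.81 per 10000 on day 12 and 5.56, 12.7 and 5.85 on day 15, again without overlap. The means were 1.97 ± 1.91 and 8.04 ± 4.04 (SD, n = 3 each, difference 6.07, exact permutation p = 0.1, adjusted 0.133). The list of day 12 replicate 1 is short: its count of 0 allows a share of up to 4.58 per 10000 at 3 counts, and of up to 5.62 by the 95% exact binomial interval. HOXD showed the widest gap in proportion, with 0, 0.300 and 0.346 per 10000 on day 12 and 2.28, 6.65 and 6.69 on day 15 (means 0.216 ± 0.188 and 5.21 ± 2.54, SD, n = 3 each, difference 4.99, exact permutation p = 0.1, adjusted 0.133). The upper bound of 5.62 for day 12 replicate 1, which had 0 summits in HOXD too, exceeds the share of day 15 replicate 1 in HOXB (5.56) and HOXD (2.28), so the order of these 2 libraries was not detectable in either cluster at this list length. HOXC had 0, 0 and 0.346 on day 12 and 0.570, 0.605 and 0 on day 15, and the days overlapped (difference 0.276, exact permutation p = 0.4, adjusted 0.4).

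A share without overlap between days and higher on day 15 was thus found in 3 of 4 clusters, against 4.11% of all 100 kb windows and 8.79% of the 7671 windows with at least 10 summits in all. The opposite order was found in 3.14% and 7.72% of these windows. Within the 2 sets of libraries, the day 15 mean was higher by 6.84 in set A and 3.61 in set B for HOXA, by 9.28 and 2.60 for HOXB, and by 6.67 and 1.96 for HOXD. Set A has only replicate 1 for day 12, and set B only replicate 1 for day 15. For HOXB and HOXD the set A differences are thus taken from the count of 0 in the shortest list. Exact permutation within sets gave p = 0.111, 0.222 and 0.111 for HOXA, HOXB and HOXD, the smallest possible being 0.111. The share of summits near gene ends was also higher on day 15 within each set, as given above. Counted per 10000 summits within 5 kb of a gene end, HOXA and HOXD still had no overlap between days (highest day 12 and lowest day 15 values 14.7 and 19.5, and 1.34 and 7.92), whereas HOXB overlapped (14.7 and 10.4). When each list was limited to its 6557 summits of highest score, the days overlapped in HOXA (3, 2 and 2 summits on day 12, and 2, 5 and 9 on day 15) and in HOXB (0, 2 and 1, and 1, 4 and 3). HOXD then had 0 in each day 12 library and 1 in each day 15 library, at a site that the full lists of day 12 replicates 2 and 3 also held. With summits of a score of at least 10 only, the days overlapped in HOXA and HOXB. The highest day 12 and lowest day 15 shares were 8.73 and 5.16 in HOXA (exact permutation p = 0.4) and 2.96 and 0 in HOXB (p = 0.5). In HOXD the days did not overlap (0.986 and 1.03), but this rested on 0, 1 and 1 summits on day 12 and 3, 1 and 1 on day 15.

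**Figure D3:**
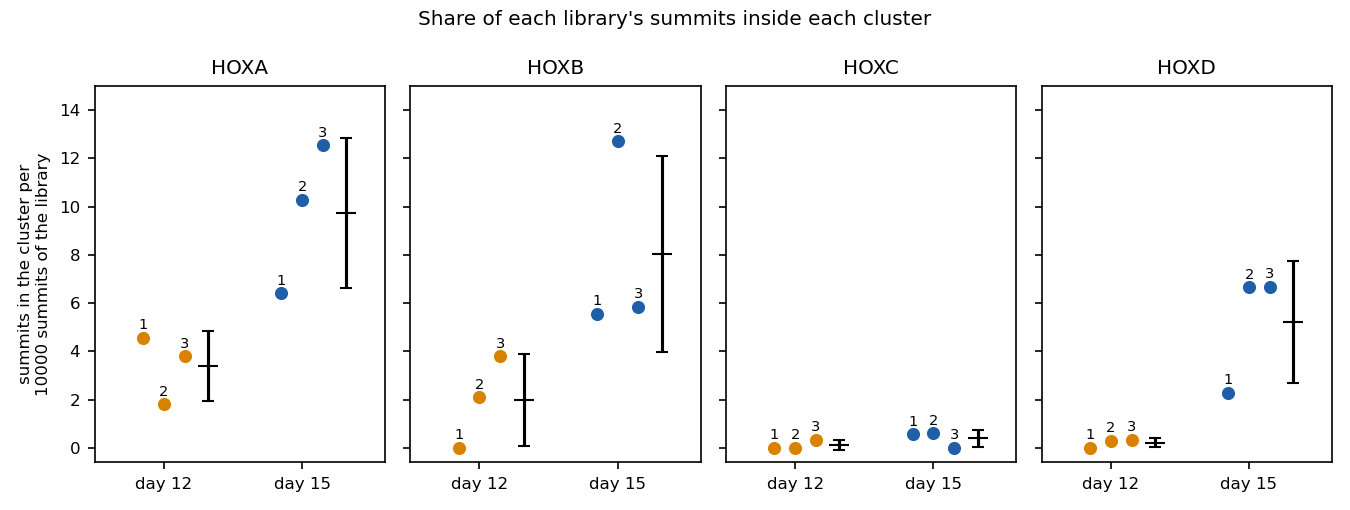
Summits inside each cluster per 10000 summits of the library, by day, with the replicate number above each point and the mean ± SD (n = 3) beside the points. Day 15 points lie above all day 12 points in HOXA, HOXB and HOXD, and the points of both days lie near 0 in HOXC.

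At the level of genes, more HOX genes had a nearby summit on day 15 than on day 12. A gene was counted in a library when a summit lay within 5 kb of either of its ends, and on a day when 2 of 3 libraries had one. On day 12 this held for 16 of 36 HOX genes (44.4%), against 38.1% of all protein-coding genes, and on day 15 for 23 (63.9%), against 46.3%. Both days were met by 15 (30.5% of all genes), all 6 libraries by 4 (11.1%, against 13.1%) and no library by 5 (29.5% of all genes). Genes in a cluster share summits, so these counts are not independent observations. Another protein-coding gene lay within 10 kb of 88.9% of the HOX genes and 67.6% of all genes, and among genes with such a neighbour 41.7% were counted on day 12 and 53.1% on day 15.

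Library by library, 4, 17 and 22 HOX genes had a summit in day 12 replicates 1 to 3 (11.1%, 47.2% and 61.1%). Of all genes it was 17.2%, 38.4% and 54.1%. In day 15 replicates 1 to 3 it was 30, 23 and 21 HOX genes (83.3%, 63.9% and 58.3%), against 64.8%, 44.6% and 37.6% of all genes. The ranges of the days thus overlapped. Of the 36 genes, 25 had a summit in more day 15 than day 12 libraries, against 35.3% of all genes, and 1 (HOXB1) in more day 12 libraries, against 11.2%. Leaving out day 12 replicate 2, or replicate 3, brought the day 12 count from 16 to 4, since both remaining libraries, one of them the shortest list, then had to have a summit. With equal lists, 3 genes were counted on day 12 and 15 on day 15, against 9.69% and 20.3% of all genes.

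**Figure D4:**
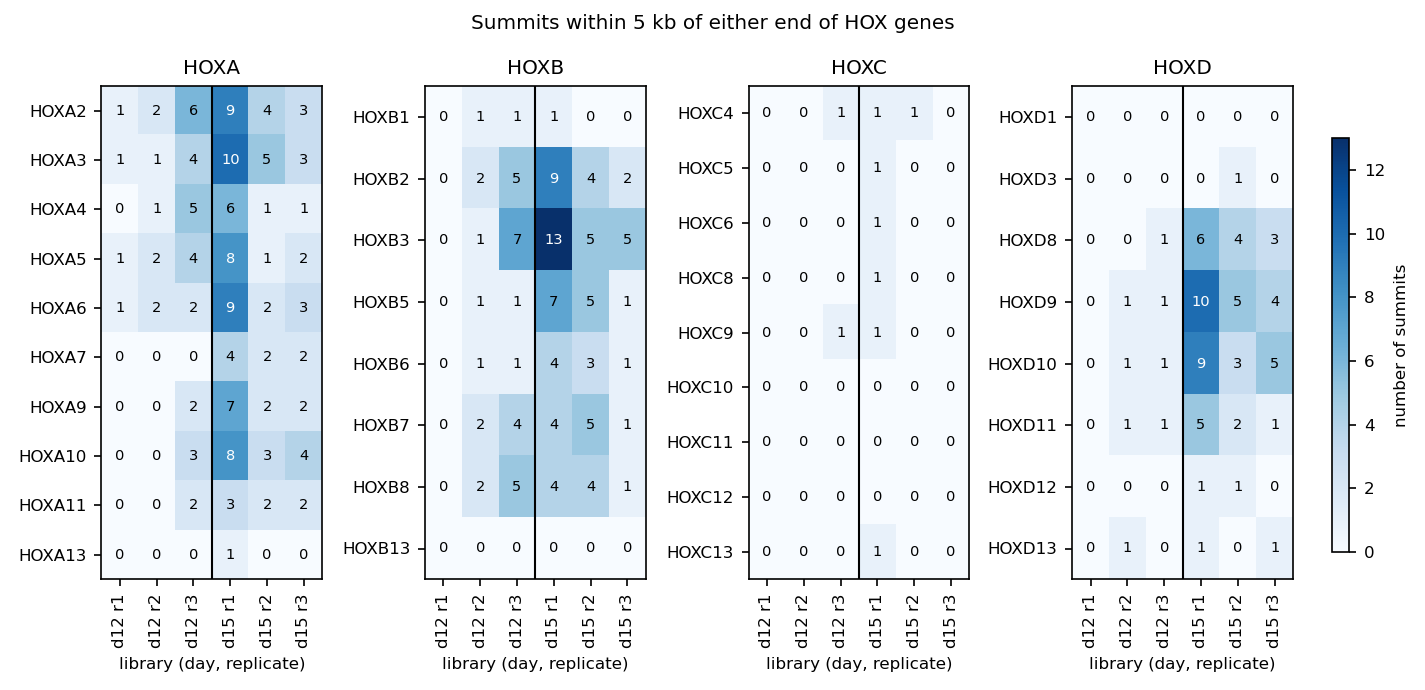
Number of summits within 5 kb of either end of the HOX genes reported here (rows, by paralogue number) in each library (columns, day 12 left of the line and day 15 right of it). HOXA2, HOXA3, HOXA5 and HOXA6 have a summit in all 6 libraries, HOXA7 only in the 3 of day 15, and HOXC rows and the outer rows of HOXB and HOXD are at or near 0.

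In the HOXA cluster, the genes with a summit in all 6 libraries were HOXA2, HOXA3, HOXA5 and HOXA6, which belong to the anterior and middle part that patterns the hindbrain, neck and thorax. HOXA5 had 1, 2 and 4 summits within 5 kb on day 12 and 8, 1 and 2 on day 15. HOXA6 had 1, 2 and 2, and 9, 2 and 3. Both genes shared one site present in all 6 libraries, at chromosome 18, 45430103 to 45430296. It lies inside HOXA5, 156 bp from the nearer end of HOXA6. Its scores were 13.3, 21.8 and 64.5 on day 12 and 58.6, 8.07 and 12.9 on day 15. They placed it between percentiles 58.7 and 98.5 of the lists, and in the shortest list it was 1 of only 3 HOX summits.

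HOXA3 had 1, 1 and 4 summits near its ends on day 12 and 10, 5 and 3 on day 15, and HOXA2 had 1, 2 and 6, and 9, 4 and 3. The annotated HOXA3 gene is 46.3 kb long and spans HOXA4, HOXA5 and HOXA6. Inside it, 7.07 kb from its end on the side of paralogue 1, lay the other site of the clusters shared by all 6 libraries (chromosome 18, 45460644 to 45460729). Its scores were 13.8, 40.2 and 67.9 on day 12 and 102.5, 7.78 and 8.12 on day 15, and the highest of these, from day 15 replicate 1, was the highest score of any HOX summit. The same site lay 226 to 311 bp from an end of LOC110257526, an uncharacterised protein-coding gene. A further HOXA3 site (chromosome 18, 45466345 to 45466420, 1.38 kb from the same end of the gene) was present in all day 12 libraries and, of day 15, in replicate 1 alone, with scores of 5.66, 8.15, 8.35 and 20.4. Over all chromosomes, 2.73% of regions (summits of any library joined within 200 bp), and 4.46% of those within 5 kb of a gene end, had a summit in all 6 libraries, and in the clusters it was 2 of 138 regions.

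HOXA4 had a summit in every library except day 12 replicate 1. A site 197 bp outside its end facing paralogue 13 (chromosome 18, 45442926 to 45443071) was present in day 12 replicate 3 and all day 15 libraries. It held the nearest summits to HOXA4 of day 15 replicates 2 and 3, whereas that of replicate 1 lay inside the gene, 0.238 kb from the same end. Its scores were 3.04 on day 12 and 11.8, 12.4 and 15.1 on day 15. HOXA7 was the only HOX gene with a summit in each day 15 library and no day 12 library, a pattern of 2.83% of all genes. It had 4, 2 and 2 summits on day 15, the nearest 0.137 to 0.414 kb from an end, and its nearest day 12 summits lay 11.2, 11.1 and 8.88 kb away. The opposite pattern was held by 0 HOX genes and by 0.0307% of all genes. HOXA7 had no summit in any library when lists of equal length were used.

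The posterior HOXA genes, those of the Müllerian tract, showed the same 2 day 12 libraries empty. HOXA10, a regulator of endometrial receptivity, had 0, 0 and 3 summits within 5 kb on day 12 and 8, 3 and 4 on day 15. HOXA11, which is needed for stromal and glandular development of the uterus in mice, had 0, 0 and 2 on day 12 and 3, 2 and 2 on day 15. HOXA9 had 0, 0 and 2, and 7, 2 and 2. All 3 genes thus had a summit in day 12 replicate 3 and in every day 15 library. A difference of 2 or 3 libraries in favour of day 15 was found in 6 of 36 HOX genes, against 11.8% of all genes, and in favour of day 12 in 0, against 1.58%.

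The summits of these genes lay at defined positions. One site was 62 bp outside the end of HOXA11 that faces paralogue 13 (chromosome 18, 45388396 to 45388461), with scores of 9.97 in day 12 replicate 3 and 21.2, 6.41 and 6.41 on day 15. Another lay just inside HOXA10, 69 bp from its end facing paralogue 13 (chromosome 18, 45393594 to 45393715), with scores of 4.03, and 8.69, 8.58 and 8.14. The latter also lay within 5 kb of HOXA11 and counted for both genes. A site inside HOXA9, 3.25 kb from its end on the side of paralogue 1 (chromosome 18, 45408107 to 45408261), had scores of 8.13, and 21.9, 11.7 and 16.7. All 3 sites were thus present in the same 4 libraries. In day 12 replicates 1 and 2 the nearest summits to an end of HOXA10 were 27.0 and 26.7 kb away, and to HOXA11 38.1 and 21.7 kb. Over the span from HOXA13 to HOXA9 (38.2 kb), day 12 replicates 1 to 3 had 0, 0 and 5 summits and day 15 replicates 1 to 3 had 12, 4 and 5.

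Day 12 replicate 3 decided these calls. Without it, 5 HOX genes had a summit in every day 15 library and in neither remaining day 12 library: HOXA7, HOXA9, HOXA10, HOXA11 and HOXD8. The 2 day 12 lists left were the shorter ones of that day. Without day 15 replicate 3, 2 genes had a summit in both remaining day 15 libraries and in no day 12 library. The share of all genes with a library left out is not given here, so these 2 counts do not set HOX genes apart. With lists of equal length HOXA9, HOXA10 and HOXA11 were without a day 12 summit and had one in 2 of 3 day 15 libraries. HOXA13, which patterns the distal limb, cervix and vagina, had a single summit, in day 15 replicate 1, 1.62 kb away.

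The HOXB cluster had no summit in day 12 replicate 1, so 0 of its genes had one in all 6 libraries. HOXB2, HOXB3, HOXB5, HOXB6, HOXB7 and HOXB8 each had a summit in the other 5 libraries. HOXB3 had 0, 1 and 7 summits near its ends on day 12 and 13, 5 and 5 on day 15, the largest number of any HOX gene in a single library. HOXB2, which together with HOXB3 patterns the hindbrain, had 0, 2 and 5, and 9, 4 and 2. HOXB5 and HOXB6 had 1 summit each in day 12 replicates 2 and 3, and 7, 5 and 1, and 4, 3 and 1, on day 15.

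The position of HOXB summits differed between libraries more than the gene counts show. A site 3.77 kb from HOXB2 on the side of paralogue 1 (chromosome 12, 24792974 to 24793014) was present in day 12 replicates 2 and 3 and day 15 replicate 1, the 3 libraries of set B, with scores of 13.7, 25.6 and 35.3 (percentiles 81.1 to 89.6). Day 15 replicates 2 and 3 shared instead a site inside HOXB2 (chromosome 12, 24798708 to 24798859, scores 10.2 and 7.82) with day 15 replicate 1 (7.06) and day 12 replicate 3 (3.71). Between HOXB7 and HOXB8, a site 135 bp from HOXB7 (chromosome 12, 24864810 to 24864931) and one inside HOXB8, 521 bp from its end on the side of paralogue 1 (24866506 to 24866696), were each present in 4 libraries. HOXB1 had a summit in the 3 libraries of set B, at 1 site 4.55 to 4.57 kb away, just inside the 5 kb limit. HOXB13, a gene of the prostate and hindgut, had no summit within 5 kb in any library, the nearest being 27.0 kb away.

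In the HOXD cluster, the genes from HOXD8 to HOXD11 carried the summits. HOXD9 had 0, 1 and 1 summits within 5 kb on day 12 and 10, 5 and 4 on day 15, HOXD10 had 0, 1 and 1, and 9, 3 and 5, and HOXD11 had 0, 1 and 1, and 5, 2 and 1. All 3 genes overlap or adjoin, and their day 12 calls (2 of 3 libraries each) rested on a single site inside HOXD11 (chromosome 15, 81908368 to 81908462). That site had scores of 10.5 and 13.1 in day 12 replicates 2 and 3 and of 90.9, 17.8 and 10.3 on day 15, at percentiles 71.6 to 97.2. With equal lists it alone was left inside HOXD on day 15. HOXD9, HOXD10 and HOXD11, which share it, were then the 3 HOX genes present in every day 15 and no day 12 library (0.292% of all genes). The limit on length cuts longer lists more. In the full lists this site stood at percentiles 72.4 and 74.0 in day 12 replicates 2 and 3 and at 71.6 in day 15 replicate 3. It is thus not a site of day 15 alone. These genes pattern the limb and the urogenital tract.

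HOXD8 had 0, 0 and 1 summits on day 12 and 6, 4 and 3 on day 15. A site across its end facing paralogue 13, from 58 bp outside to 149 bp inside the gene (chromosome 15, 81930865 to 81931072), was present in all day 15 libraries and no day 12 library, with scores of 27.9, 8.28 and 4.61. The day 12 summit of HOXD8 lay elsewhere, 3.97 kb from the gene. HOXD12 had a summit in day 15 replicates 1 and 2 only, at 4.56 and 3.002 kb. HOXD13 had one in 1 of 3 and 2 of 3, at one site 582 to 598 bp beyond the end of the gene that is also the edge of the cluster. HOXD3 had a single summit, in day 15 replicate 2, and HOXD1 had none within 5 kb, the nearest 11.7 kb away in day 12 replicate 3.

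The HOXC cluster had 7 summits over all 6 libraries, of which 4 were from day 15 replicate 1, the longest list. A single position recurred, inside HOXC4, 3.81 kb from its end on the side of paralogue 1 (chromosome 5, 19264437 to 19264454), in day 12 replicate 3 and day 15 replicates 1 and 2, with scores of 3.31, 7.79 and 2.66. HOXC4 was therefore the only HOXC gene counted on a day, with 2 of 3 day 15 libraries. HOXC5, HOXC6, HOXC8 and HOXC13 had a summit in day 15 replicate 1 alone. HOXC9 had one in day 12 replicate 3 and one in day 15 replicate 1, at different positions 4.18 and 3.20 kb from the gene. HOXC10, HOXC11 and HOXC12 had none in any library.

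Genes were also grouped by paralogue number. Of the 8 genes of groups 1 to 3, 6 (75%) were counted on day 12 and 5 (62.5%) on day 15. Of the 13 of groups 4 to 8 it was 7 (53.8%) and 10 (76.9%), and of the 15 of groups 9 to 13, 3 (20%) and 8 (53.3%). Over all genes it was 38.1% and 46.3%, and among genes with a coding neighbour within 10 kb 41.7% and 53.1%. HOXC held 5 of the 15 posterior genes, and 0 of these were counted on either day. The 3 posterior genes counted on day 12 were HOXD9, HOXD10 and HOXD11. On day 15 they were joined by HOXA9, HOXA10, HOXA11, HOXD12 and HOXD13. Both genes of group 2 were counted on both days, and of the 4 genes of group 13, 0 were counted on day 12 and 1 on day 15. In groups 4 to 11 every HOXA, HOXB and HOXD gene was counted on day 15, and of the HOXC genes only HOXC4. Paralogues thus did not share one pattern across clusters, and no test of the groups was made.

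Joined within 200 bp, the summits inside the clusters formed 138 regions: 56 in HOXA, 54 in HOXB, 5 in HOXC and 23 in HOXD. In 1 library only were 57.2% of them, against 50.5% of all regions of the series. Regions with no day 12 summit made up 65.2% in the clusters, against 35.0% of all regions and 40.9% of regions within 5 kb of a gene end, and 91.3% in HOXD (21 of 23). All day 15 libraries and no day 12 library had a summit in 7 of 138 (0.9% of all regions, 2.49% of those within 5 kb of a gene end), and the opposite in 0 (0.139% of all regions). The 7 were 2 in HOXA, 3 in HOXB and 2 in HOXD. More HOXB and HOXD summits scored below the median of their own list than above it (65.6% and 68.4% below). In HOXA the 2 sides were nearly even (53.7% below). In day 15 replicates 2 and 3, the median HOXD summit stood at percentiles 23.4 and 14.9.

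Other families of developmental transcription factor genes were counted in the same way. Of 83 other homeobox genes, 19 (22.9%) were counted on day 12 and 24 (28.9%) on day 15, and of 62 forkhead and SOX genes 14 (22.6%) and 19 (30.6%), all below the 38.1% and 46.3% of all genes. Of all 36 HOX genes it was 16 (44.4%) and 23 (63.9%). Without HOXC, 16 of 27 HOX genes (59.3%) were counted on day 12 and 22 (81.5%) on day 15. HOXC had few summits in these same libraries, and no other list was trimmed in this way. The values without HOXC are thus not comparable with those of the other lists. These differences between lists were not tested. Summits were also counted per gene, so that a summit near several genes of a list counted once for each. They came to 12.2, 8.11 and 9.35 per 10000 for the other homeobox genes on day 12 and 12.0, 20.6 and 22.6 on day 15, and for the HOX genes to 6.10, 6.91 and 10.4, and 21.4, 40.5 and 41.0. For the forkhead and SOX genes they were 9.15, 6.91 and 7.62, and 9.84, 21.2 and 23.4. Day 15 values were thus above all day 12 values for both the HOX genes and the forkhead and SOX genes, and the days overlapped by a narrow margin for the other homeobox genes (12.2 against 12.0). Repeated counting raises the HOX values, since HOX genes lie close together. With each summit inside the 4 clusters counted once, they held 4.58, 4.20 and 8.31 per 10000 on day 12 and 14.8, 30.2 and 25.1 on day 15. MSX1, a homeobox gene that controls uterine receptivity in mice, had a summit in 1 of 3 and 3 of 3 libraries, as did DLX6 and POU2F1.

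Genes of proteins that act with or on HOX factors or their partners showed a mixed picture. Of 11 such genes, 4 (36.4%, against 38.1% of all genes) were counted on day 12 and 7 (63.6%, against 46.3%) on day 15. Their summits per 10000 did not overlap between days either (highest day 12 value 2.70, lowest day 15 value 4.42). MEIS1, a TALE homeodomain partner of posterior and middle HOX proteins, had a summit in all 6 libraries 227 to 794 bp from an end. MEIS2 and PBX2 had one in 0 of 3 and 2 of 3 libraries, and GMNN, which encodes geminin, in 1 of 3 and 3 of 3. Of 28 regulators of HOX clusters, such as retinoid receptors and Polycomb and Trithorax proteins, 15 (53.6%, against 38.1% of all genes) were counted on day 12 and 21 (75%, against 46.3%) on day 15. The summits per 10000 of these regulators overlapped between days (highest day 12 value 15.3, lowest day 15 value 9.69). The Polycomb genes BMI1 and CBX7 and the menin gene MEN1 had a summit in 1 of 3 and 3 of 3, and CDX4 in 2 of 3 and 0 of 3.

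Of 18 genes linked to HOXA10 or HOXA11 in the uterus, 8 (44.4%, against 38.1% of all genes) were counted on day 12 and 14 (77.8%, against 46.3%) on day 15. Their summits per 10000 did not overlap between days (highest day 12 value 7.63, lowest day 15 value 9.69). Whether lists of other genes of this size show the same order was not tested. The progesterone receptor gene PGR, the β-catenin gene CTNNB1, the stromal progesterone-response gene HAND2 and TGFB2 each had a summit in 1 day 12 library and in all 3 of day 15, the pattern of HOXA10 and HOXA11. The rule for named genes puts members that differ between days first, so they do not stand for their list. Of 16 genes on either side of the clusters, 9 (56.2%, against 38.1% of all genes) were counted on day 12 and 10 (62.5%, against 46.3%) on day 15. Only EVX1, EVX2 and TTLL6 of them lie within 50 kb of a cluster, and HNRNPA3 (chromosome 15, from 82958329) lies far beyond HOXD. The summits per 10000 of the 16 genes overlapped between days (highest day 12 value 10.7, lowest day 15 value 2.99). EVX1, the even-skipped homologue beyond HOXA13, had a summit 617 to 638 bp from one end in all 6 libraries (chromosome 18, 45327073 to 45327094). EVX2, the corresponding neighbour of HOXD13, had none within 5 kb.

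Expression was not measured, so the tissue label could be set only against summits at marker genes. Epithelial markers were counted for 4 of 7 genes on each day, stromal markers for 4 and 7 of 8, smooth muscle markers for 3 and 5 of 6, endothelial markers for 1 of 5 on each day and leukocyte markers for 2 of 8 on each day. The stromal and smooth muscle counts were higher on day 15, as were the HOX count and the share of all genes (38.1% on day 12, 46.3% on day 15). The part of these cell types in the HOX count was not tested.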

How the data were processed

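The members and gene lists were chosen with earlier results of these data known. The build susScr11 and the tools MACS2 2.1.2, SAMtools 1.9 and Bowtie2 2.3.5.1 are named in the submitters' processing notes. For thresholds, input use and duplicate removal the entry is "not given in the sources used here". The authors deposited 1 list of summits per library with a −log10 p-value or q-value as score (which of the 2 is not stated). The lowest score was 2.02 in day 12 replicate 1 and 1.31 to 1.37 in the others. Read depth is unknown.

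Summits on the 18 autosomes, X and Y (196220 of 198341) were counted in Python 3.11.15 with NumPy 2.4.6, with positions from 1. Gene positions came from RefSeq (Sscrofa11.1, the assembly of susScr11), which gives no strand here. A cluster runs from the first to the last HOX base. Genes needed a summit within 5 kb of either end in 2 of 3 libraries. Regions join summits within 200 bp. Days were compared by exact permutation of library labels, and the counting was tested on simulated data. The rule for named genes covered every HOX gene (1 stays in the counts but is not reported here), and of each other list up to 4 members, those differing by 2 or 3 libraries first, then those in all 6 libraries. Alternatives were score limits of 2, 5 and 10, equal lists, other windows and cluster limits, each library left out, pairing by replicate number and averaging within sets. Chosen after seeing the data were a denominator of summits near gene ends and day 15 replicates 2 and 3 as 1 sample. Planned promoter motif counts were not run, since no sequence was given.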

Additional observations from a re-analysis of the deposited data

How the results depend on the processing

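The day 15 share of HOXA, HOXB and HOXD had a higher mean than that of day 12 under each alternative run: by 2.81 to 8.02, 1.07 to 7.31 and 1.42 to 6.46 per 10000 over the 15 alternatives on that scale, by 10.6, 10.4 and 9.99 per 10000 summits near gene ends and by 14.3, 7.64 and 11.1 summits per 100 kb. The absence of overlap was lost for HOXA and HOXB with a score of at least 10, equal lists and summits per 100 kb, and for HOXB also per summits near gene ends. HOXC gave 0 with equal lists, no summit being left. Leaving out 1 library gave 4.95 to 8.02 for HOXA, 3.73 to 7.31 for HOXB, 0.170 to 0.472 for HOXC and 4.25 to 6.46 for HOXD. With day 15 replicates 2 and 3 averaged as 1 sample, the differences were 5.52, 5.45, 0.321 and 4.26 in the same order. Exact permutation then gave p = 0.1, 0.1, 0.3 and 0.1, the smallest possible being 0.1. Whether the replicate numbers pair the libraries could not be decided. Same-numbered deviations over windows correlated at -0.402, -0.116 and -0.238, and other-numbered ones at -0.272 to 0.354. Every same-numbered pair joins a library of set A with one of set B, and the positive values all lie within a set. The check thus cannot tell pairing from set. With a replicate block the differences were 6.35, 6.07, 0.276 and 4.99 (exact sign permutation p = 0.25, 0.25, 0.5 and 0.25, smallest possible 0.25).

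Counts of HOX genes moved more. On day 12, day 15 and both days they were 7, 13 and 6 with a score of at least 10, 3, 15 and 3 with equal lists, and 28 on day 12 and on both days within 50 kb. Within 1 kb, 4 genes were counted on day 12 and 4 on both days, and the same with all 3 libraries of a day required. The number in all 6 libraries was 0 with a score of at least 10 or equal lists, 2 within 1 kb and 11 within 50 kb. The number in no library was 9 and 13 with scores of at least 5 and 10, 19 with equal lists, 14 within 1 kb and 0 within 50 kb. The number in 3 of 3 day 15 and 0 of 3 day 12 libraries was 3, 3, 2, 0 and 0 with a score of at least 10, equal lists, and windows of 1, 10 and 50 kb. Leaving out 1 library gave 4 to 16 genes on day 12, 20 to 23 on day 15, 4 to 15 on both, 4 to 15 in every library (15 without day 12 replicate 1), 5 to 10 in none (10 without day 15 replicate 1) and 1 to 5 in all of day 15 but none of day 12. The cause of these moves was not tested. Among these alternatives, shares of all genes are given for equal lists only (9.69% on day 12, 20.3% on day 15, 7.13% on both days and 64.1% in no library). The counts under the other settings thus do not set HOX genes apart. List length limits what is detectable, above all for day 12 replicate 1.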

Other observations

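The clusters also hold non-coding RNA genes, whose distance to the nearest summit was measured in the same way. The lncRNA gene LOC102160006, which ends just before HOXA11, had a summit 136 to 201 bp from an end in day 12 replicate 3 and all 3 day 15 libraries. LOC110257592, inside HOXA3, had one within 5 kb in all 6 libraries. In HOXB, the microRNA gene MIR10A had its nearest summits 24, 325 and 1384 bp away in day 15 replicates 1 to 3 and 2.32 kb away in day 12 replicate 3, whereas MIR196A-1 had none within 5 kb in any library. In HOXD, MIR10B had none within 5 kb, and in HOXC, MIR196A-2 and MIR615 had 1 library each.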
